A study of Mus musculus with 9 samples.

Results

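Cell cycle and DNA replication genes were read in cultured mouse vascular progenitor cells by RNA-Seq. The set was a list of 53 genes given by name. No cut-off on measured values picked them, but the list was chosen with earlier results of these data known. It held 8 G1 cyclins and cyclin-dependent kinases (CDKs), 5 E2F and Myb transcription factors, 17 S phase genes of DNA replication and nucleotide synthesis, and 23 genes of mitosis, among them the S/G2 cyclin Ccna2. All 53 were found among the 55416 genes of the count table, and all 53 were among the 14879 genes with enough reads to be tested.

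The cells were smooth muscle-derived Sca1+ adventitial progenitors (AdvSca1-SM), which live in the outer layer of the artery wall. They were sorted as YFP+ Sca1+ cells from the aorta and carotid arteries of pooled 8-week-old SM22α-Cre-YFP mice on a C57BL/6 background, in which Cre driven by the smooth muscle promoter SM22α switches on the reporter, and they were subcultured before use. There were 3 groups of 3 libraries. Stem cells were kept in stem cell medium, which for maintenance contains 10% fetal bovine serum (FBS), 1 ng/mL basic fibroblast growth factor and 5 ng/mL epidermal growth factor. Before treatment, growth was arrested for 24 h in 0.1% FBS with the same growth factors. The paper's methods describe this arrest for treated cells and do not state it for cells kept in stem cell medium. The TGF group then received DMEM with 0.1% FBS and 5 ng/mL TGF-β1, a cytokine that drives myofibroblast differentiation, and the Both group received in addition 50 µM PFI-3, a ligand of the bromodomain of the chromatin remodeler Brg1. All cells had 0.1% DMSO and were collected after 72 h. The serum given to Stem cells during those 72 h is not stated in the labels. Between Stem and TGF the medium, the growth factors, TGF-β1 and any difference in prior arrest therefore cannot be told apart. TGF and Both differ in PFI-3 alone.

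A cell enters the cycle when D-type cyclins with CDK4 or CDK6, and then E-type cyclins with CDK2, phosphorylate the retinoblastoma protein and free the E2F factors. E2F factors switch on the genes that license origins, unwind and copy DNA and supply deoxynucleotides. Genes of G2 and mitosis are switched on later, largely by the MuvB complex with B-Myb (the product of Mybl2) and FoxM1, which bind the CHR element, often near a CCAAT box bound by NF-Y. In bulk RNA a change of such genes can come from more or fewer cells in a phase or from more or less RNA per cell, and these cannot be told apart. No measure of DNA synthesis or of cell number was analysed here.

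The RefSeq promoter windows (build GRCm38.p6, from 250 bases before to 50 bases after each start site) were searched for these elements, since the classes share them by function and not by the list's rule. Of the 53 members, 43 matched, with 46 windows. The CHR word TTTGAA and the CCAAT word, each on either strand, stood together in the windows of 14 of 18 matched mitotic genes (77.8%) and of 1 of 15 S phase genes (6.67%), against 7.97% of all 27025 genes with a window. An E2F word of 8 letters (TTTCCCGC, TTTGGCGC, TTTCGCGC or TTTGCCGC, either strand) was found for 6 of 15 S phase genes (40.0%) and 1 of 18 mitotic genes (5.56%), against 2.6% of all genes with a window. A gene with several windows was counted once. The 150 bases before the start site of 5 members are printed below, with the words in capitals, because they show windows with and without each word and belong to genes that differed in direction. Ube2c (chr2:164769779-164769928, plus strand) and Kif11 (chr19:37376232-37376381, plus strand) are mitotic genes with a CHR and CCAAT words. Cdk1 (chr10:69352913-69353062, minus strand) holds an E2F word as well. Mcm6 (chr1:128359706-128359855, minus strand) is an S phase gene with 3 E2F words, of which a pair overlaps. Rrm2 (chr12:24708104-24708253, plus strand) is an S phase gene with a CCAAT word and none of the E2F words in its window.
Ube2c: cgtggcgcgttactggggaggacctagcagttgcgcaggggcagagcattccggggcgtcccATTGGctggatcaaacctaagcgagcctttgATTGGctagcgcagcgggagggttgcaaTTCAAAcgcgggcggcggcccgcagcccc
Kif11: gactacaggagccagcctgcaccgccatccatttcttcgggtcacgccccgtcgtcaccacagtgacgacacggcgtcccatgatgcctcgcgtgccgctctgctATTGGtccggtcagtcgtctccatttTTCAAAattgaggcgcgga
Cdk1: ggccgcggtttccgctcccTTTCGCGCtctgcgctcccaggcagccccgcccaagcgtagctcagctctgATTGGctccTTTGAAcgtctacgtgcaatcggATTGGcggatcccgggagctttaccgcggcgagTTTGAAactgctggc
Mcm6: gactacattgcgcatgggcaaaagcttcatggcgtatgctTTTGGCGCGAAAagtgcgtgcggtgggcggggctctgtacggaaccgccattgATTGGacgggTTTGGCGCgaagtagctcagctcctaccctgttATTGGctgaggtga
Rrm2: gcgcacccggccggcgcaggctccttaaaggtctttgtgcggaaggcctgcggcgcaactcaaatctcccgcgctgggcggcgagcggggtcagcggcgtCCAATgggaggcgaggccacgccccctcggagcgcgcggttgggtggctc
A match is only a match of letters. Binding of a factor was not measured in these files.

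The libraries held between 35686291 and 47741128 counts. Spearman's rho between replicates, over genes, was 0.994 or higher, and Stem replicate 2 differed more from the other Stem libraries than any other pair of replicates did. The share of mitochondrial counts was 14.2% to 15.4% in Stem, 12.1% to 12.2% in TGF and 14.3% to 14.8% in Both, and its part in the results was not tested. The progenitor marker Ly6a was high in Stem (6557, 8441 and 7908 normalised counts) and lower in TGF (855, 1094 and 875). Of the AdvSca1-SM markers, Ly6a, Cd34, Pdgfra and Scara5 were all highest in Stem, whereas Gli1 had at most 2 counts there. From that floor Gli1 went the other way, with log2 changes from Stem by edgeR of 3.29 in TGF and 3.48 in Both. All 4 lymphocyte and all 5 hepatocyte markers had at most 2 counts in any library. Of 5 macrophage markers, Adgre1 was at 0 and Ptprc at most at 3 counts, while Csf1r had 17 to 33 counts in Stem, 53 to 87 in TGF and 145 to 156 in Both. Cd68 had 1 to 7, 10 to 15 and 11 to 19 counts in the same order, and Lyz2 97 to 116, 104 to 108 and 154 to 163. Csf1r and Cd68 rose between Stem and TGF by edgeR (1.41 and 1.86), Lyz2 did not pass (-0.07), and all 3 rose between Stem and Both. Of 5 endothelial markers, Pecam1, Cdh5 and Tie1 had at most 13 counts, Emcn had 43 to 168 in Stem and at most 18 elsewhere, and Kdr at most 2 in Stem and 21 to 34 elsewhere. The part of such cells in the results was not tested. Values below are normalised read counts, scaled to a common library size, of the libraries in replicate order. On that scale the floor of 3 counts lies between 2.63 and 3.26. A gene was said to rise or fall at an adjusted p below 0.05 by edgeR's quasi-likelihood test over all genes, and to pass the study's threshold if the change was also more than 2-fold. Labels and methods call the replicates independent, but the cells came from pooled mice, so p-values measure the spread between these cultures.

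Between Stem and TGF, 43 of the 53 genes passed edgeR's adjusted p, of which 35 rose and 8 fell. The background was 37.3% of all genes tested rising and 37.7% falling, whereas 66% of the members rose and 15.1% fell. Past 2-fold, 16 members (30.2%) changed, near the 25.1% of all genes, with 14 higher (26.4% against 10.6%) and 2 lower (3.77% against 14.5%). The median log2 fold change of the members was 0.55, beside -0.0027 over all genes tested. The classes moved unequally. Of the mitotic genes 18 of 23 rose and 2 fell, with a median of 0.78. Of the S phase genes 8 of 17 rose and 4 fell, with a median of 0.14, which was 0.06 without Stem replicate 1, 0.20 without Stem replicate 2 and 0.02 under total counts. Of the E2F and Myb factors 4 of 5 rose and 0 fell, with a median of 0.82, and E2f2 missed the threshold by edgeR (0.65 ± 0.30, SE, adjusted p = 0.0704). Of the G1 genes 5 of 8 rose and 2 fell, with a median of 0.40. Differences between the classes were not tested. Without TMM, when libraries are scaled by their totals, the median of all genes lies at -0.12 on the log2 scale and that of the members at 0.43, and 10 members are higher and 3 lower past 2-fold.

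**Figure D1:**
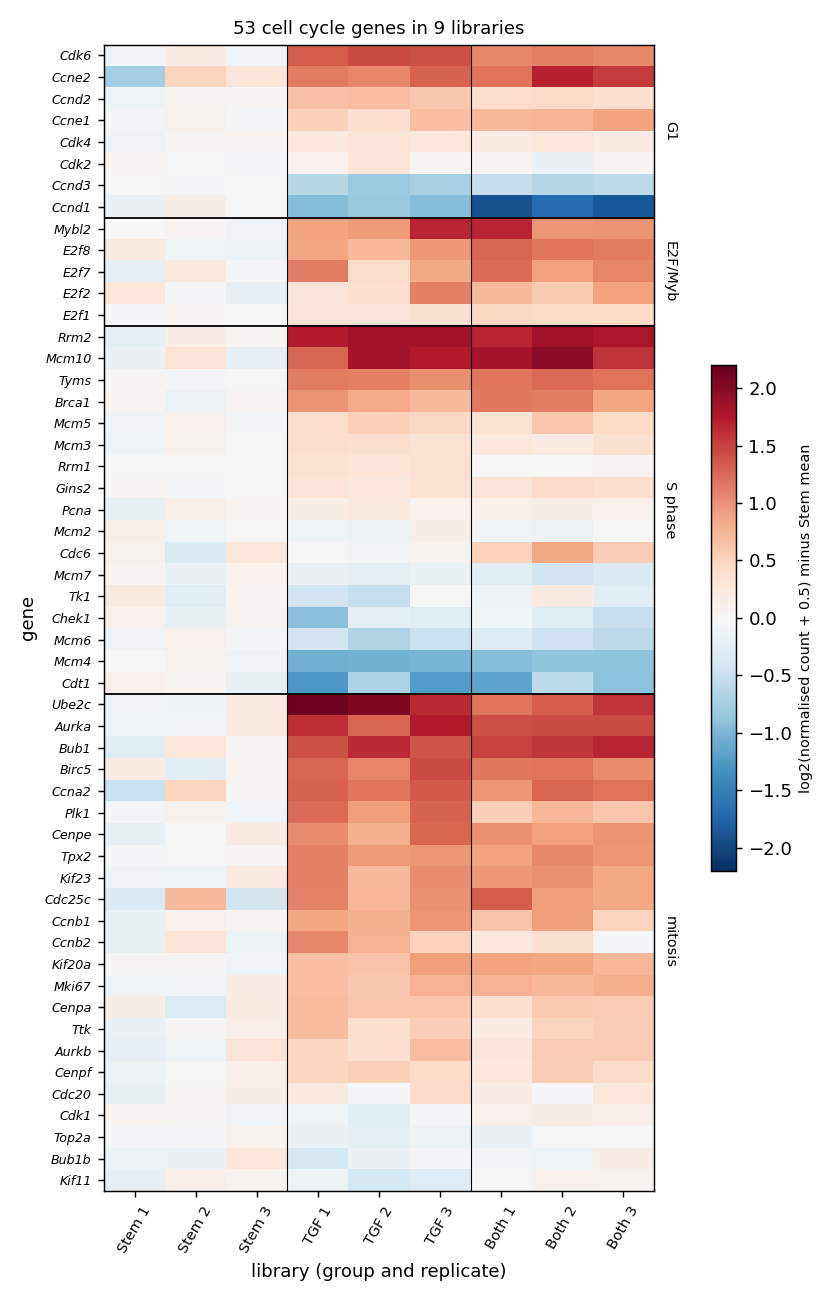
Heat map of the 53 genes (rows, grouped by class and ordered by the change from Stem to TGF) in the 9 libraries (columns). Color gives log2(normalised count + 0.5) minus the mean of the 3 Stem libraries. Most mitotic rows are red in all TGF and Both libraries, with Ube2c at the top, whereas Ccnd1, Ccnd3, Mcm4 and Cdt1 are blue in all 6.

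**Figure D2:**
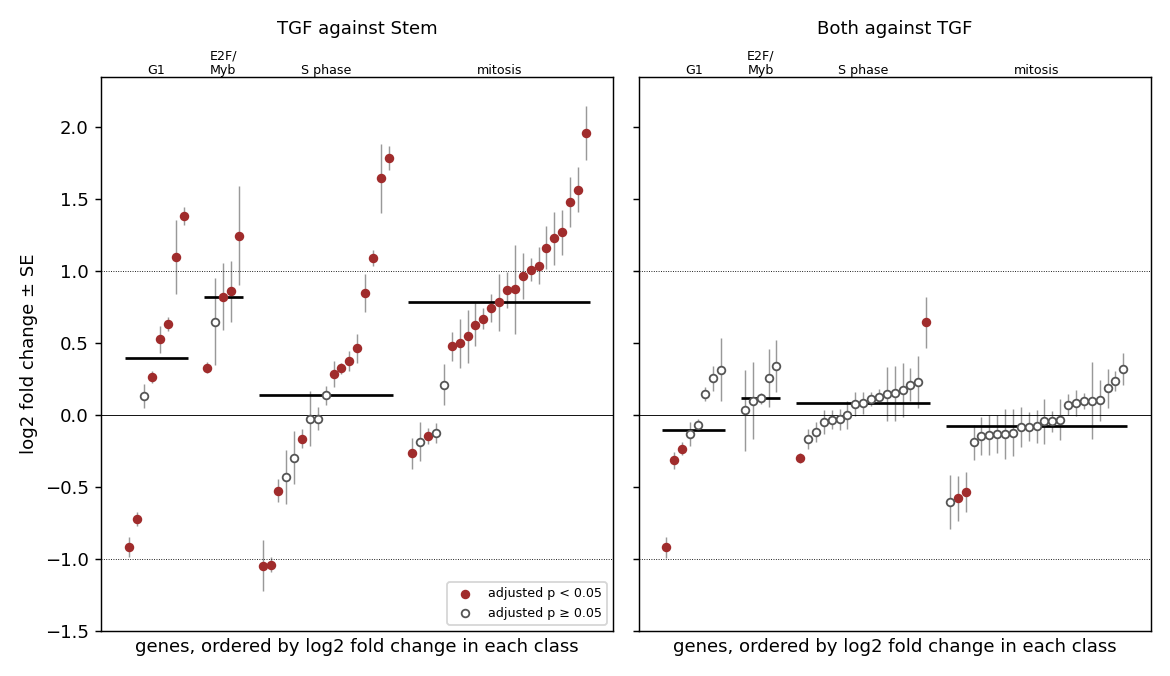
Fitted log2 fold change of each gene with its SE, for TGF against Stem and Both against TGF, by class. Filled points passed edgeR's adjusted p of 0.05, thick bars are class medians and dotted lines mark 2-fold. In TGF against Stem the points range from -1.04 to 1.96, and in Both against TGF all lie within the dotted lines.

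D-type cyclins, the partners of CDK4 and CDK6 that couple growth signals to the cycle, changed in opposite directions. Ccnd1 was at 9522, 11454 and 10384 in Stem, 5394, 5867 and 5361 in TGF, and 2751, 3188 and 2865 in Both. The 3 groups did not overlap, with Stem highest and Both lowest. The fall from Stem to TGF was -0.92 ± 0.07 (log2, SE, edgeR adjusted p = 1.59e-07). Both lay a further -0.92 ± 0.07 below TGF (edgeR adjusted p = 2.81e-05), so that Both and Stem differed by -1.83 ± 0.07. Ccnd1 was the member that PFI-3 changed most, and by the annotation 21.9% of its exon length overlaps a gene on the opposite strand. Ccnd2 went the other way, with 25040, 27810 and 27036 in Stem and 41376, 42376 and 40188 in TGF. With PFI-3 it stood at 35052, 36142 and 34197, between the other groups and without overlap. The rise was 0.63 ± 0.05 (edgeR adjusted p = 8.97e-08) and the difference of Both from TGF was -0.23 ± 0.05 (edgeR adjusted p = 0.00826). Ccnd3 fell from 3614, 3540 and 3597 to 2314, 2045 and 2166 (-0.72 ± 0.05, edgeR adjusted p = 3.73e-08), and was at 2498, 2326 and 2394 in Both (0.15 ± 0.05, adjusted p = 0.0806).

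Within a library the balance of the D cyclins therefore shifted. There were 2.63, 2.43 and 2.60 normalised counts of Ccnd2 for each of Ccnd1 in Stem, 7.67, 7.22 and 7.50 in TGF, and 12.7, 11.3 and 11.9 in Both. These ratios did not overlap between groups. Ccnd1 made up between 24.9% and 26.8% of the D cyclin counts in Stem, between 11.0% and 11.7% in TGF and between 6.83% and 7.65% in Both. Per kilobase of exon, Ccnd2 was the most abundant member in every group, with a mean of 3968 normalised counts per kb in Stem, and E2f2 the least, with 2.63.

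Cdk6, a catalytic partner of the D cyclins, had the largest rise of the G1 genes. It was at 1925, 2286 and 1920 in Stem, 5121, 5525 and 5390 in TGF, and 4252, 4396 and 4256 in Both. TGF was above both other groups in every library. The rise was 1.39 ± 0.06 (edgeR adjusted p = 9.73e-10), and Both was -0.31 ± 0.06 from TGF (edgeR adjusted p = 0.00714). Cdk4, the other D cyclin kinase, rose by less (0.26 ± 0.04, edgeR adjusted p = 0.000104). Ccne2, an E-type cyclin that activates CDK2, was low, with 16.8, 40.2 and 34.6 in Stem, 63.7, 60.8 and 71.3 in TGF, and 65.7, 94.8 and 84.3 in Both. Stem lay below both treated groups, which overlapped each other. Its rise was 1.10 ± 0.26 (edgeR adjusted p = 0.00212), that of Ccne1 was 0.53 ± 0.09 (adjusted p = 0.000222), and Cdk2, their kinase, did not pass the test (0.14 ± 0.08, adjusted p = 0.162).

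**Figure D3:**
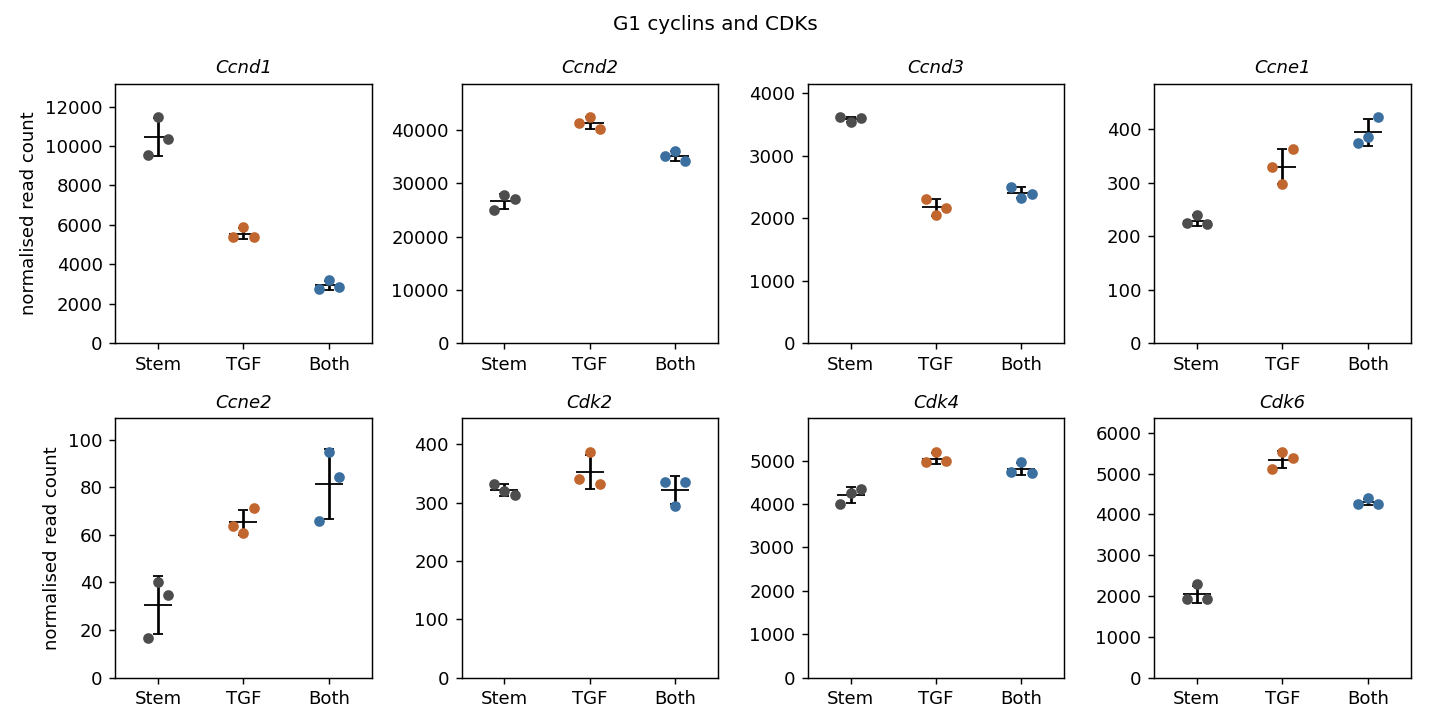
Normalised read counts of the 8 G1 cyclins and CDKs by group, with each library as a point and the mean ± SD of 3 libraries as black bars; each axis starts at 0. Ccnd1 steps down from Stem (9522 to 11454) to TGF (5361 to 5867) to Both (2751 to 3188), whereas Ccnd2 and Cdk6 are highest in TGF.

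The E2F and Myb factors stood at very different levels. E2f1, an activator E2F, was at 1448, 1534 and 1509 in Stem and 1868, 1863 and 1912 in TGF, with no overlap. It rose by 0.33 ± 0.04 (edgeR adjusted p = 8.44e-06). The atypical repressors E2f7 and E2f8, themselves E2F targets, were under 61 normalised counts in all libraries. E2f8 was at 18.8, 15.2 and 15.1 in Stem and 30.2, 27.4 and 32.2 in TGF, and rose by 0.86 ± 0.21 (edgeR adjusted p = 0.00278). E2f7 rose by 0.82 ± 0.23 (edgeR adjusted p = 0.00636). Mybl2, which encodes B-Myb, rose from 10.5, 10.9 and 9.74 to 19.4, 20.3 and 34.2 (1.25 ± 0.34, edgeR adjusted p = 0.0057). Stem and TGF did not overlap, although TGF replicate 3 stood above the other TGF libraries. None of the 5 factors passed the test between TGF and Both by edgeR, and 1 of them had an unadjusted p under 0.05.

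S phase genes moved in both directions, and the enzymes of deoxynucleotide synthesis are described first. Rrm2, the S phase subunit of ribonucleotide reductase, was at 228, 293 and 275 in Stem, 878, 932 and 942 in TGF, and 845, 947 and 909 in Both. Stem lay far below both treated groups, which overlapped. The rise was 1.79 ± 0.08, or 3.46-fold (edgeR adjusted p = 1.52e-09), the largest of the class. Its partner subunit Rrm1 was at 2387, 2342 and 2380 in Stem and 2992, 2936 and 2977 in TGF (0.33 ± 0.04, edgeR adjusted p = 3.59e-06). With PFI-3 it was at 2390, 2389 and 2485, below TGF in every library (-0.29 ± 0.03, edgeR adjusted p = 0.00037) and 0.03 ± 0.04 from Stem. Tyms, which makes thymidylate, rose from 438, 425 and 428 to 954, 930 and 873 (1.09 ± 0.05, edgeR adjusted p = 2.59e-09), whereas the salvage kinase Tk1 did not pass the test (-0.30 ± 0.18, adjusted p = 0.162). Of the genes of DNA damage signaling in this class, Brca1 rose by 0.85 ± 0.13 (edgeR adjusted p = 8.45e-05), and the checkpoint kinase Chek1 did not pass (-0.43 ± 0.19, adjusted p = 0.0537). Stem and TGF did not overlap for Chek1. Its fall passed under total counts, with no filter, and with a filter on a mean of at least 10 counts. It also passed without Stem replicate 2 or TGF replicate 2.

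Origin licensing factors did not move together. Cdt1, which loads the helicase at origins, was at 166, 163 and 138 in Stem, 64.7, 95.3 and 66.4 in TGF, and 69.3, 104 and 83.4 in Both. All TGF and Both libraries lay below Stem (TGF against Stem, -1.04 ± 0.18, edgeR adjusted p = 0.000182). Cdc6, which works with Cdt1, was at 46.1, 34.8 and 51.9 in Stem and 43.2, 41.6 and 45.9 in TGF, with overlap (-0.02 ± 0.19, edgeR adjusted p = 0.917). In Both it was at 62.1, 79.0 and 64.1, above all 6 other libraries. That rise over TGF was 0.65 ± 0.17 (edgeR adjusted p = 0.0403), and it missed 0.05 by DESeq2 (adjusted p = 0.0595) and without any 1 of the TGF or Both libraries, with adjusted p from 0.017 to 0.142 over the alternatives. Mcm10, which helps to activate the helicase, rose from 13.6, 18.5 and 13.0 to 36.7, 53.8 and 50.8 (1.65 ± 0.24, edgeR adjusted p = 5.38e-05). Gins2, a subunit of the GINS complex, rose by 0.29 ± 0.09 (edgeR adjusted p = 0.0125), with 70.7% of its exon length overlapped by a gene on the opposite strand.

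The 6 subunits of the MCM2-7 helicase form a single ring, yet their transcripts changed unequally. Mcm4 was at 1368, 1456 and 1299 in Stem, 657, 671 and 680 in TGF, and 712, 740 and 745 in Both. Every Stem library lay far above both treated groups, without overlap (TGF against Stem, -1.04 ± 0.05, edgeR adjusted p = 3.43e-09). Mcm6 fell from 1332, 1500 and 1385 to 1048, 888 and 997 (-0.52 ± 0.08, edgeR adjusted p = 6.05e-05). Mcm3 and Mcm5 rose, by 0.38 ± 0.07 and 0.46 ± 0.10 (edgeR adjusted p = 0.000306 and 0.00145). Mcm2 was at 584, 504 and 534 in Stem, 505, 500 and 592 in TGF and 503, 497 and 544 in Both, and did not pass the test in any comparison (TGF against Stem, -0.02 ± 0.08, edgeR adjusted p = 0.811). Mcm7 was at 680, 608 and 706 in Stem and 609, 577 and 598 in TGF. These groups overlapped, and its fall (-0.16 ± 0.07, edgeR adjusted p = 0.0472) was lost in 11 of 17 alternatives. Per kilobase of exon, group means ranged from 39.0 (Mcm5) to 383 (Mcm4) in Stem and from 53.7 (Mcm5) to 224 (Mcm6) in TGF. Pcna, the sliding clamp of the replication fork, was at 1079, 1313 and 1244 in Stem and 1315, 1391 and 1294 in TGF, with overlap (0.14 ± 0.07, edgeR adjusted p = 0.0721). Over 17 alternatives its change ranged from 0.02 (total counts) to 0.20 (without Stem replicate 2) and its adjusted p from 0.00742 to 0.76. It passed without Stem replicate 2, with no filter (adjusted p = 0.0419) and with the replicate block (adjusted p = 0.0311), and stood at 0.06 without Stem replicate 1.

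**Figure D4:**
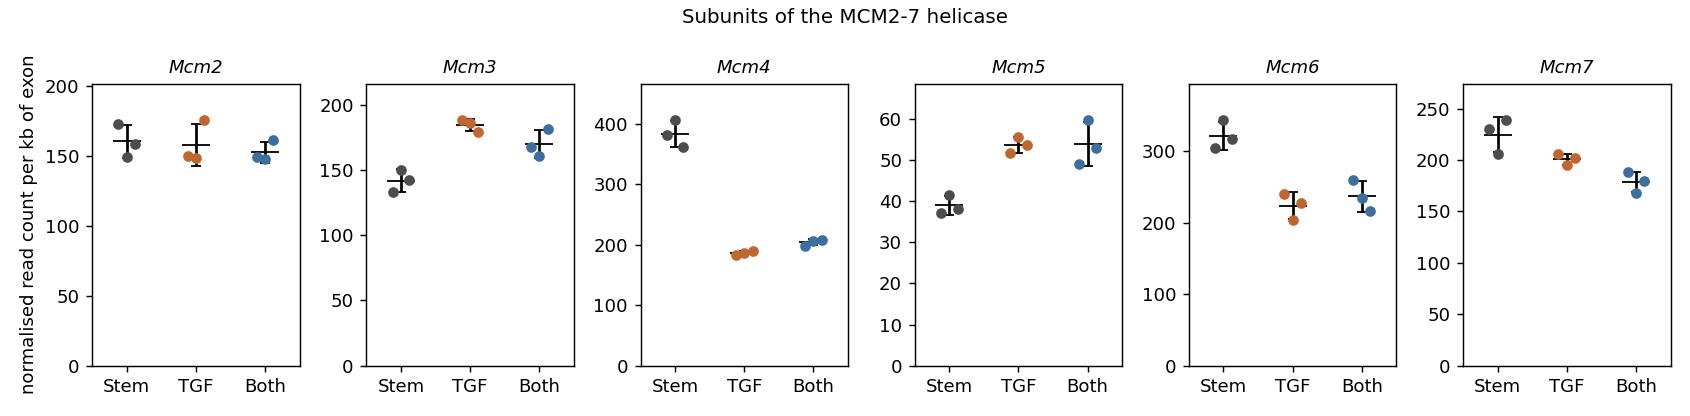
Normalised read counts per kilobase of exon for the 6 MCM2-7 subunits by group, with each library as a point and mean ± SD of 3 libraries as black bars; each axis starts at 0. Mcm4 and Mcm6 drop from Stem to TGF, Mcm3 and Mcm5 rise, and Mcm2 overlaps in all 3 groups.

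Of the 6 S phase genes with an E2F word, Mcm3 and Mcm5 rose, Cdt1, Mcm6 and Mcm7 fell, and Cdc6 did not pass the test between Stem and TGF. The fall of Mcm7 is the one lost in 11 of 17 alternatives, DESeq2 among them. Of the 9 matched S phase genes without one, 5 rose and 0 fell, Rrm2 among the former. Of all genes tested, 37.3% rose and 37.7% fell. Chek1, among the 9, did not pass the test in the main fit, but its fall passed in some alternatives, as given above. Mcm4, which fell, and Gins2, which rose, were not matched to a window. The difference between genes with and without the word was not tested. The printed Mcm6 and Rrm2 windows belong to genes that moved in opposite directions.

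Of the 35 genes that rose from Stem to TGF, 18 were mitotic, a class that holds 23 of the 53 members. Ube2c, the E2 enzyme that works with the anaphase-promoting complex, was at 32.5, 31.5 and 38.9 in Stem, 152, 143 and 107 in TGF, and 78.3, 86.9 and 104 in Both. The 3 groups did not overlap, although the highest Both library came close to the lowest TGF library. The rise to TGF was 1.96 ± 0.19, or 3.89-fold (edgeR adjusted p = 1.1e-06), the largest of all members. The annotation gives 22.8% of its exon length as overlapped by Tnnc2 on the opposite strand, and the strand setting of the counting is not given in the sources used here. Aurka, a spindle pole kinase, rose from 37.7, 38.0 and 45.4 to 125, 98.4 and 136 (1.57 ± 0.16, edgeR adjusted p = 1.79e-06), and was at 108, 110 and 111 in Both. Bub1, a kinase of the spindle checkpoint, rose from 22.0, 31.5 and 27.0 to 71.2, 84.2 and 70.3 (1.48 ± 0.17, edgeR adjusted p = 7.56e-06).

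The other mitotic genes past 2-fold were Birc5 (survivin), Ccna2 (cyclin A2), Plk1 (a mitotic kinase), Cenpe (a kinetochore motor) and Tpx2 (an activator of Aurora A), with log2 changes of 1.27, 1.23, 1.17, 1.04 and 1.01. Ccnb1, the cyclin that brings CDK1 into mitosis, was at 107, 127 and 123 in Stem, 217, 204 and 232 in TGF, and 183, 225 and 167 in Both. All treated libraries lay above Stem (0.87 ± 0.13, edgeR adjusted p = 5.47e-05). The remaining mitotic genes that rose by less than 2-fold were Kif23 (0.97) and Kif20a (0.75), motors of cytokinesis, Cdc25c (0.87), a phosphatase that activates CDK1, Ccnb2 (0.78), cyclin B2, Cenpa (0.63) and Cenpf (0.48), centromere proteins, Ttk (0.55), a checkpoint kinase, and Aurkb (0.50), the kinase of the chromosomal passenger complex. Of these, Cdc25c, Ttk and Aurkb had edgeR adjusted p of 0.0224, 0.0176 and 0.0176, and each lost its call in 3 or 4 of 17 alternatives. By the annotation 31.8% of the exon length of Kif20a overlaps a gene on the opposite strand. The proliferation marker Mki67 was at 326, 332 and 383 in Stem, 549, 521 and 588 in TGF, and 585, 566 and 594 in Both. Its rise was 0.67 ± 0.08 (edgeR adjusted p = 5.4e-06), with Stem below every other library.

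Top2a and Cdk1, which in Stem had the highest levels per kilobase of the mitotic genes (means of 213 and 84.0 normalised counts per kb), did not rise. Cdk1, the mitotic kinase, was at 385, 380 and 359 in Stem, 352, 318 and 362 in TGF, and 401, 411 and 406 in Both. Stem and TGF overlapped (-0.12 ± 0.07, edgeR adjusted p = 0.132), and Both lay above every other library (0.24 ± 0.07 over TGF, edgeR adjusted p = 0.055). That difference passed when the 6 libraries were fitted alone (adjusted p = 0.0352), and under total counts Cdk1 fell from Stem to TGF by 0.24 on the log2 scale (adjusted p = 0.0107). Top2a, the topoisomerase that resolves sister chromatids, was at 1072, 1084 and 1172 in Stem and 1020, 970 and 1024 in TGF, without overlap (-0.14 ± 0.06, edgeR adjusted p = 0.0336). Kif11, a spindle motor, was at 160, 196 and 190 in Stem, 168, 138 and 148 in TGF, and 182, 194 and 191 in Both (TGF against Stem, -0.27 ± 0.11, edgeR adjusted p = 0.0457). The changes of Top2a and Kif11 were small, and the calls were lost in 7 and 11 of 17 alternatives, DESeq2 among them. Top2a lost its call without Stem replicate 3, Both replicate 2 or any TGF library. Cdc20 and Bub1b did not pass the test (0.21 ± 0.14 and -0.18 ± 0.14).

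**Figure D5:**
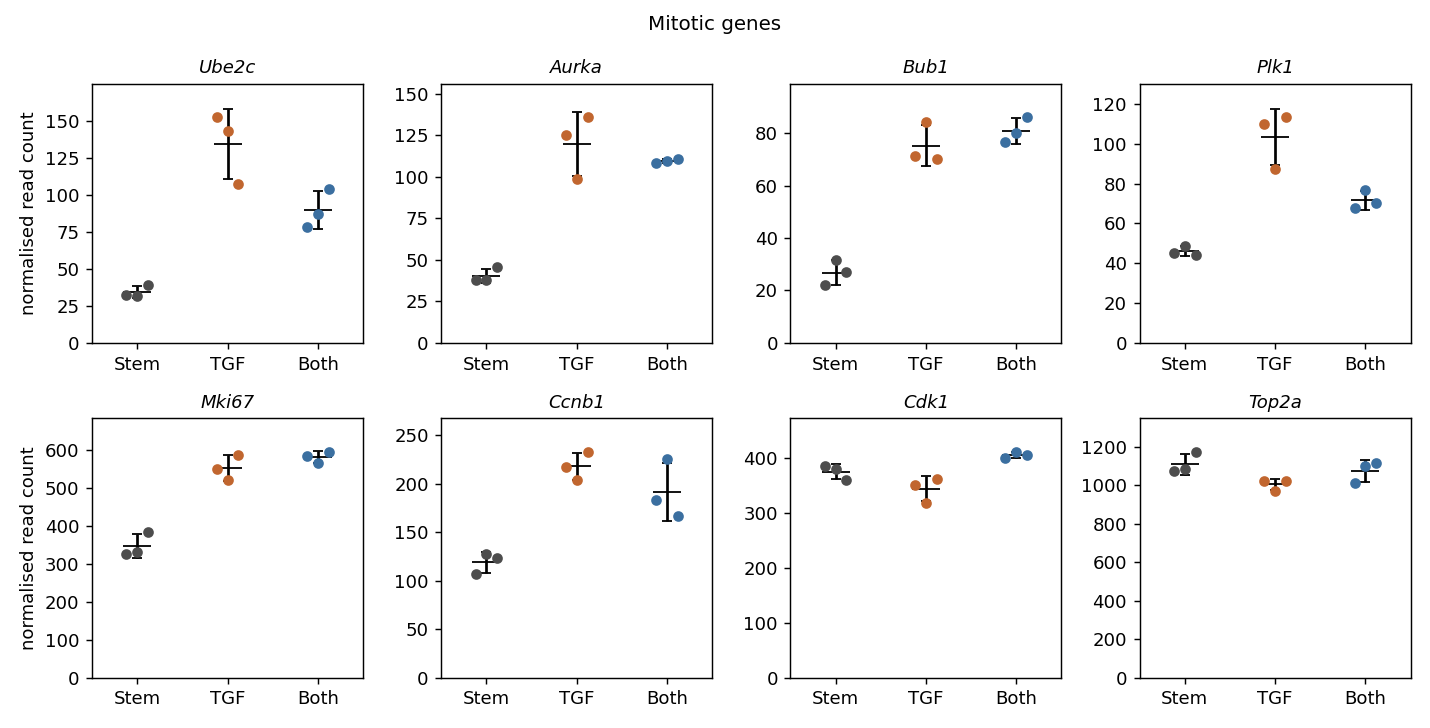
Normalised read counts of 8 mitotic genes by group, with each library as a point and mean ± SD of 3 libraries as black bars; each axis starts at 0. Ube2c, Aurka, Bub1, Plk1, Mki67 and Ccnb1 are higher in every TGF library than in Stem, whereas Cdk1 overlaps and Top2a sits slightly lower.

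Of the 14 mitotic genes whose window held the CHR and CCAAT words, 9 rose, 2 fell (Top2a and Kif11) and 3 did not pass the test, with a median log2 change of 0.59. The calls of Top2a and Kif11 are the ones lost in 7 and 11 of 17 alternatives, and by DESeq2 0 mitotic genes fell. The 4 matched mitotic genes without a CHR word, Ccnb1, Bub1, Cenpe and Birc5, all rose, with a higher median log2 change of 1.1546. Among all genes tested, 37.3% rose and 37.7% fell between Stem and TGF. In the mitotic class of 23 genes, 78.3% rose and 8.7% fell. The difference between mitotic genes with and without the CHR word was not tested.

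Few genes of the whole table changed by more than 2-fold with PFI-3. Between TGF and Both, 0 of the 53 genes passed the study's threshold by edgeR or by DESeq2, where 0.632% of all genes did, so the count of 0 says little about the members, and 16 had an unadjusted edgeR p under 0.05 (14 by DESeq2). At an adjusted p below 0.05 alone, 1 rose (Cdc6, 1.89%) and 6 fell (11.3%), against 3.54% and 5.38% of all genes, or 13.2% of the members against 8.92% in either direction. The median absolute log2 fold change was 0.13 over the members and 0.11 over all genes. The members' median log2 fold change was 0.0019 and that of all genes -0.002. This comparison and that of TGF with Stem share the 3 TGF libraries. The genes that fell were Ccnd1, Ccnd2, Cdk6 and Rrm1, described above, and the mitotic genes Plk1 and Ube2c. Ccnb2 had the largest change of the mitotic class but did not pass (-0.60 ± 0.19, edgeR adjusted p = 0.0678). It passed with no filter, with the replicate block, when the 6 libraries were fitted alone and without Stem replicate 2. Of the 23 mitotic genes, passed or not, 15 lay lower in Both than in TGF and 8 higher. Plk1 was at 45.0, 48.9 and 44.4 in Stem, 110, 87.2 and 113 in TGF, and 67.5, 77.0 and 70.2 in Both. Both lay between the other groups without overlap (-0.53 ± 0.14 from TGF, edgeR adjusted p = 0.0319). The difference of Ube2c was -0.58 ± 0.16 (edgeR adjusted p = 0.0406). Ccnd1, Ccnd2, Cdk6 and Rrm1 passed in all 17 alternatives. Plk1 was lost by DESeq2 (adjusted p = 0.0507) and without Stem replicate 3, TGF replicate 1 or 3, or Both replicate 1 or 3, with adjusted p from 0.0198 to 0.135 over the alternatives. Ube2c was lost without Stem replicate 3, TGF replicate 1 or 2, or Both replicate 1 or 2, with adjusted p from 0.00452 to 0.16.

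Against Stem, the Both group differed much as TGF did, and both comparisons with Stem share the same 3 Stem libraries. Of the 53 genes, 34 rose and 6 fell by edgeR, where 36.6% of all genes rose and 36.6% fell. Past 2-fold, 15 changed (28.3% against 22.8% of all genes), 14 of them higher. The median was 0.47. The single member lower by more than 2-fold was Ccnd1. The 6 that fell were Ccnd1 (-1.83), Mcm4 (-0.91), Cdt1 (-0.87), Ccnd3 (-0.57), Mcm6 (-0.44) and Mcm7 (-0.33). Top2a and Kif11 did not pass the test (-0.05 ± 0.05 and 0.06 ± 0.11).

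Further genes of the same pathways were counted between Stem and TGF, where 37.3% of all genes rose and 37.7% fell. Of 50 further mitotic genes, 27 rose (54%) and 6 fell (12%) by edgeR. The largest changes were those of Cit (citron kinase, 55.5, 58.7 and 59.5 in Stem and 247, 269 and 260 in TGF, 2.16 ± 0.12) and Kif18b (a kinesin, 2.05 ± 0.24). Of 40 further replication genes, 11 rose (27.5%) and 15 fell (37.5%). Orc1, the largest subunit of the origin recognition complex, rose by 1.72 ± 0.28 from 7.33, 8.69 and 5.41 to 23.7, 21.3 and 26.4. Gins4, a subunit of the GINS complex that binds the helicase, fell from 1411, 1372 and 1476 to 499, 488 and 513 (-1.51 ± 0.05). Pole2, a subunit of polymerase epsilon, differed by -1.47 ± 0.29. Of 52 tested histone genes in the clusters, 11 rose and 11 fell, although these are near-identical copies whose reads can be divided among them.

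Of 14 tested pocket proteins, MuvB subunits and other E2F factors, 4 rose (28.6%) and 5 fell (35.7%) between Stem and TGF. Of all genes 37.3% rose and 37.7% fell, so these counts say little about the list. Rb1, the retinoblastoma protein, was at 1042, 1041 and 1054 in Stem and 1945, 1942 and 1910 in TGF (0.89 ± 0.04, edgeR adjusted p = 3.06e-09), whereas its relative Rbl2 differed by -0.76 ± 0.04. Foxm1, which drives mitotic genes with MuvB, did not pass the test (-0.03 ± 0.10, adjusted p = 0.822).

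All 7 CDK inhibitors passed the test between Stem and TGF, 3 higher and 4 lower, where 75% of all genes passed. Cdkn1a, which encodes p21, was at 3334, 3196 and 3114 in Stem, 12418, 12844 and 12204 in TGF, and 9061, 9578 and 9139 in Both. It rose by 1.96 ± 0.04 (edgeR adjusted p = 1.88e-12) and lay -0.43 ± 0.04 lower in Both than in TGF (edgeR adjusted p = 7.82e-05). Cdkn2b, an inhibitor of CDK4 and CDK6, rose by 1.36 ± 0.04, with 1421, 1451 and 1416 in Stem, 3670, 3682 and 3657 in TGF and 2582, 2536 and 2646 in Both. Cdkn2a rose by 0.71 ± 0.07, and its reads join 2 products, since the locus encodes an inhibitor of CDK4 and CDK6 and the p53 regulator ARF. With PFI-3, Cdkn2a and Cdkn2b were lower by -0.56 ± 0.07 and -0.50 ± 0.03 (edgeR adjusted p = 0.000468 and 1.23e-05). Cdkn1c, which encodes p57, went from 1070, 1128 and 1110 to 20.5, 7.10 and 7.81, a difference of -6.56 ± 0.19 (edgeR adjusted p = 1.88e-11). Cdkn1b, Cdkn2c and Cdkn2d fell by smaller amounts (-0.79, -0.67 and -0.52).

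Of 11 genes that report growth factor signaling, 8 fell and 3 rose between Stem and TGF by edgeR, so that all 11 passed where 75% of all genes did. Spry2, a feedback inhibitor of the pathway downstream of fibroblast and epidermal growth factor receptors, went from 7092, 7444 and 7751 to 854, 870 and 818 (-3.13 ± 0.05), and Dusp6, an ERK phosphatase, differed by -2.02 ± 0.10. Spry2 and Dusp6 fell beside Ccnd1, whereas the 3 genes that rose did so by at most 0.78 on the log2 scale. Of the 11 genes 72.7% fell and 27.3% rose, against 37.7% and 37.3% of all genes. The change of medium and TGF-β1 cannot be told apart in any of them.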

How the data were processed

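The 9 libraries (Stem, TGF and Both, 3 each) were prepared as ribosomal RNA-depleted total RNA and sequenced in paired reads. The authors deposited whole-number counts of reads for each Ensembl identifier, not normalized. The sources differ on how they were made. The paper's methods name Flexbar and STAR, and the submitters' processing notes list HISAT2 2.2.1, SAMtools 1.13 and HTSeq 0.11.3, all on GRCm39. The strand setting and the handling of multiply aligned reads are not given in the sources used here, so near-identical copies and genes overlapped on the opposite strand (10 members over more than 10% of their exon length) are uncertain. The labels' extraction text names hepatic tissue, but hepatocyte markers were at or near 0.

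Counts were scaled by TMM and tested in R 4.3.3 with edgeR 4.0.16 (filterByExpr, glmQLFit and glmQLFTest, prior count of 0.125) in a joint fit of the 9 libraries on group alone, with Benjamini-Hochberg adjustment over 14879 genes. A call past the threshold needed an adjusted p below 0.05 and a change of more than 1 on the log2 scale in either direction. DESeq2 1.42.0, which the paper's methods name, was an alternative, beside other scalings, filters, a replicate block, TREAT and leaving out each library. The script was tested on simulated data. Symbols came from a reference table (52083 identifiers matched), which writes histones under older names, and Lin54 was not matched. Exon lengths are from GENCODE M21 on GRCm38 and were used for lengths and overlaps only. Over the 9 same-numbered pairs of libraries, deviations from the group means correlated between -0.0636 and 0.161. The 3 pairs over 0.1 were those among the replicate 2 libraries (0.1318, 0.1605 and 0.1002). Stem replicate 1 and Both replicate 3, which differ in number, correlated at 0.1325. Such weak correlations cannot decide whether the numbers pair the samples, and the main fit used no pairing.

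Per-library values are given for Mki67, Top2a, Pcna, Mcm2, Ccnb1, Cdk1 and Ccnd1, for the 2 members of each class with the largest change in TGF against Stem and Both against TGF at the adjusted p, and for members opposite to their class. From the other lists, up to 4 genes with the largest change between Stem and TGF and all CDK inhibitors could be named. Further genes (Rb1, Rbl2, Foxm1, Ly6a, Ptprc and remaining members) were chosen after their values were seen. The members and lists were chosen with earlier results of these data known. Intervals are SE of the fit or ranges over libraries, and cover the spread between these cultures.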

Additional observations from a re-analysis of the deposited data

How the results depend on the processing

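Of the 43 members that passed between Stem and TGF, 36 passed in all 17 alternatives with a test of each gene, as did 4 of 7 between TGF and Both and 35 of 40 between Stem and Both. Among the 17, the prior count of 2 altered the fold changes but not the p-values, so no call at the adjusted p could be lost there. Without a fold-change minimum the counts past the threshold are 43, 7 and 40 in place of 16, 0 and 15, and TREAT against 2-fold leaves 6 between Stem and TGF, 0 between TGF and Both and 6 between Stem and Both. Leaving out 1 library gave counts of 12 to 18, 0 and 13 to 17 respectively, and several members lie near 2-fold. Total counts lowered the median log2 fold change to 0.43 for TGF against Stem and 0.36 for Both against Stem. Leaving out 1 library gave medians of 0.44 to 0.576 for Both against Stem, highest without Stem replicate 3, and of -0.0413 to 0.0515 for Both against TGF. The latter median also turned under DESeq2 and under its size factors (-4e-04 each), so its sign depended on these settings. Changes of sign were scored only for members picked by the naming rule, not for all 53 and not in every comparison. Among those scored, Mcm2 and Top2a turned over the fits without 1 library. Mcm2 did so between Stem and TGF (-0.0988 to 0.0394) and between TGF and Both (-0.0928 to 0.0348). Top2a did so between Stem and Both (-0.0666 to 0.0033), and it passed there under total counts (-0.15, edgeR adjusted p = 0.0391). The causes were not tested. With the replicate block, 11 members passed between TGF and Both at an adjusted p below 0.05 in place of 7, with Ccnd3, Ccne1, Ccnb2 and Cdk1 added, and the counts past the threshold were 16, 0 and 15. Same-numbered libraries correlated over 0.1 in 3 of 9 pairs, and 3 of 9 libraries were closest to their own number. Rises between TGF and Both at the adjusted p numbered between 0 and 5 over the alternatives. With 3 libraries a group, the low members have larger errors (SE of 0.34 on the log2 scale for Mybl2 between Stem and TGF, against 0.05 for Mcm4), and small changes of these were not detectable.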

Other observations

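Over the 9 libraries, the genes outside the lists whose level was most like the mean standardized profile of the S phase and mitotic members were 4933431E20Rik, Klc3, Celsr3, Tmem203 and Nelfe, with Pearson correlations of 0.984 to 0.987. The points share library and depth, and 18.8% of 14637 genes correlated above 0.9 with that profile, so the likeness is that of a broad pattern between Stem and the treated groups.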
